A study of Mus musculus with 18 samples.

Results

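Kidneys of IKKβ∆Tub mice were compared with kidneys of control mice at 14 days after ischemia/reperfusion (I/R) injury, across all genes. The comparison takes 6 of the 18 libraries of the series, 3 from IKKβ∆Tub and 3 from control, chosen by strain and time from the library names. IKKβ∆Tub mice (Pax8-rtTA-LC1Cre/IKKβ fl/fl, called Ikkb knockout in the labels) delete IKKβ along the renal tubule upon doxycycline, under the Pax8 promoter. The study measured a high but incomplete deletion in tubular cells. Control mice (IKKβ fl/fl, called WT in the labels) carry the same floxed alleles without the Cre system. Both strains drank doxycycline from 6 weeks of age for 2 weeks, followed by 1 week without it, and both then had the left renal pedicle clamped for 30 min. mRNA was taken from whole frozen kidney, so every value averages the tubules with the vessels, the interstitium and the infiltrating cells. By the labels a library pools 2 mice, but by the deposited key 5 of the 6 libraries came from single mice and control replicate 3 from a pool of 2, and how many mice each library stands for is not settled. Nothing else in the labels says that the 3 libraries of a group came from separate experiments, and the p-values measure the spread between these libraries.

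IKKβ is the catalytic subunit through which cytokine and Toll-like receptors activate NF-κB. It phosphorylates the inhibitor IκBα, which is then degraded, and NF-κB dimers enter the nucleus and induce chemokines, adhesion molecules, survival genes and their own inhibitors. In the kidney after ischemia, chemokines from stressed tubules recruit monocytes, neutrophils and lymphocytes, while surviving tubular cells divide and regain their transporters, and persistent inflammation precedes fibrosis.

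mRNA levels are read counts divided by the 90th percentile of the library, as deposited, and are not scaled by gene length, so they are compared between libraries and not between genes. The values of a strain are given for replicates 1, 2 and 3 in that order. The libraries held 17059123 to 25933188 reads in IKKβ∆Tub and 13053850 to 21703468 reads in control. IKKβ∆Tub replicate 2 stood apart. Its root mean square log2 distance from the mean of uninjured control kidneys was 0.580, where IKKβ∆Tub replicates 1 and 3 had 1.02 and 0.968 and the control libraries 1.21, 1.17 and 1.15. Most counts, list medians and values of named genes are therefore given with and without this library. The strains also differed in sex as read from Y-linked genes, which were expressed in none of the IKKβ∆Tub libraries and in control replicates 1 and 2. The abundant male-biased kidney gene Kap had levels of 3.06, 189 and 17.7 in IKKβ∆Tub and 79.8, 51.0 and 8.61 in control. Of 9 tested male-biased kidney genes all had log2 fold changes below 0 (median -1.39, and -2.07 without IKKβ∆Tub replicate 2). Of 5 female-biased genes all lay above 0 (median 2.11, and 1.18 without that library). Sex and IKKβ deletion cannot be told apart for control replicates 1 and 2, and control replicate 3 is the library of its strain without Y-linked expression. None of 6 adipocyte genes passed the threshold (median -1.42, and -1.31 without IKKβ∆Tub replicate 2). Their summed level was 0.140, 0.182 and 1.45 in IKKβ∆Tub and 4.71, 0.148 and 2.23 in control. The tubular markers Cdh16 (10.7, 9.37 and 12.3 in IKKβ∆Tub, 8.72, 8.39 and 9.16 in control) and Pax8 (3.01, 2.09 and 3.04 in IKKβ∆Tub, 2.76, 3.74 and 3.62 in control) were present in every library.

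Ikbkb (ENSMUSG00000031537), the gene of IKKβ on chromosome 8 (GRCm38, 22659212 to 22706589), had mRNA levels of 0.843, 0.669 and 0.844 in IKKβ∆Tub and 1.21, 1.11 and 1.13 in control. The ranges did not overlap, but the log2 fold change of -0.55 (SE 0.17) missed the threshold with an adjusted p of 0.134 from limma. Reads were summed over all exons of the gene and over all kidney cells, including other cell types and tubular cells that keep IKKβ. The vomeronasal receptor gene Vmn1r32 separated the strains at 14 days and at baseline but not at 2 days (log2 fold change 0.45, adjusted p = 0.857 from limma). At 14 days it had 138, 57 and 71 reads in IKKβ∆Tub and 0 reads in each control library, at least 23.9-fold higher against a floor of 3 reads per library, which covers counting error only.

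Differences were tested with limma on log2(level + 0.005) in 16342 genes, with the 18 libraries sharing an estimate of the spread. At a Benjamini-Hochberg adjusted p under 0.05, 49 genes were lower in IKKβ∆Tub (0.3% of genes tested) and 11 were higher (0.0673%). At an unadjusted p under 0.05 with a fold change over 1.5, referred to as the p and fold filter, 1202 genes were lower (7.36%) and 518 higher (3.17%). The same filter gave 928 lower and 789 higher genes with edgeR and 959 lower and 839 higher genes with DESeq2 on the recovered reads. The excess of lower genes was smaller in these fits, which also scale the libraries in another way. With median ratio scaling limma gave 1105 lower and 613 higher genes. The libraries of the strains did not overlap for 1482 lower genes (9.07%) and 725 higher genes (4.44%). Over all genes tested the median log2 fold change was -0.05. Without IKKβ∆Tub replicate 2, 11 genes were lower (0.0673%) and 2 higher (0.0122%) at the adjusted p, and 627 were lower (3.84%) and 224 higher (1.37%) by the p and fold filter. Without it the ranges were apart for 1757 lower genes (10.8%) and 1123 higher genes (6.87%). Replicate 2 was the most extreme IKKβ∆Tub library for 42 of the 49 lower genes and for 10 of the 11 higher genes. Leaving out another library moved the counts of lower and higher genes at the adjusted p to 424 and 182 (IKKβ∆Tub replicate 1), 363 and 75 (IKKβ∆Tub replicate 3), 9 and 4 (control replicate 1), 75 and 4 (control replicate 2) and 56 and 17 (control replicate 3). edgeR called 3 lower and 2 higher genes, and DESeq2 270 lower and 231 higher.

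The 60 genes past the adjusted p kept their direction in every setting tried for them, whereas the calls themselves did not hold equally. The strains did not overlap in any of the 49 lower and 11 higher genes, so leaving out libraries could not reverse a direction. Limma fits with a replicate block or a constant prior variance could not either. Without IKKβ∆Tub replicate 2, 13 of the 60 remained past the threshold, and all 60 had an unadjusted p under 0.05 by limma. The 60 had been selected with the libraries that remain, so this is no independent evidence. Among the 49 lower genes 46 then still differed by more than 1 on the log2 scale, and the median difference was -1.62, against -1.96 with all libraries. Among the 11 higher genes 8 did, with a median of 1.20, against 1.28 with all libraries. The libraries that lack Y-linked expression leave control replicate 3 as the lone control, assumed to vary like the other groups. There the median difference was -1.68 for the lower genes and 1.18 for the higher genes. The 60 genes were selected with this control, and every IKKβ∆Tub library already lay apart from it in each of them. These medians therefore cannot tell sex and strain apart. With Y-linked expression as a covariate 9 of the 60 remained. Of the 60, edgeR called 5 and DESeq2 51. Those that DESeq2 did not call included Mucl1, Retnla, Foxp3, Cd5, Pdcd1 and Cd226 (adjusted p of 0.517, 0.215, 0.127, 0.0992, 0.0879 and 0.0823 from DESeq2). Without the 2-day libraries, which share the estimate of the spread, 16 of the 60 remained, and with limma on the 14-day libraries alone 1 did. The lower genes rested on few reads, with a median over genes of 16.7 mean reads in IKKβ∆Tub and 72.7 in control, and 15 of the 49 averaged under 10 reads in IKKβ∆Tub.

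**Figure D1:**
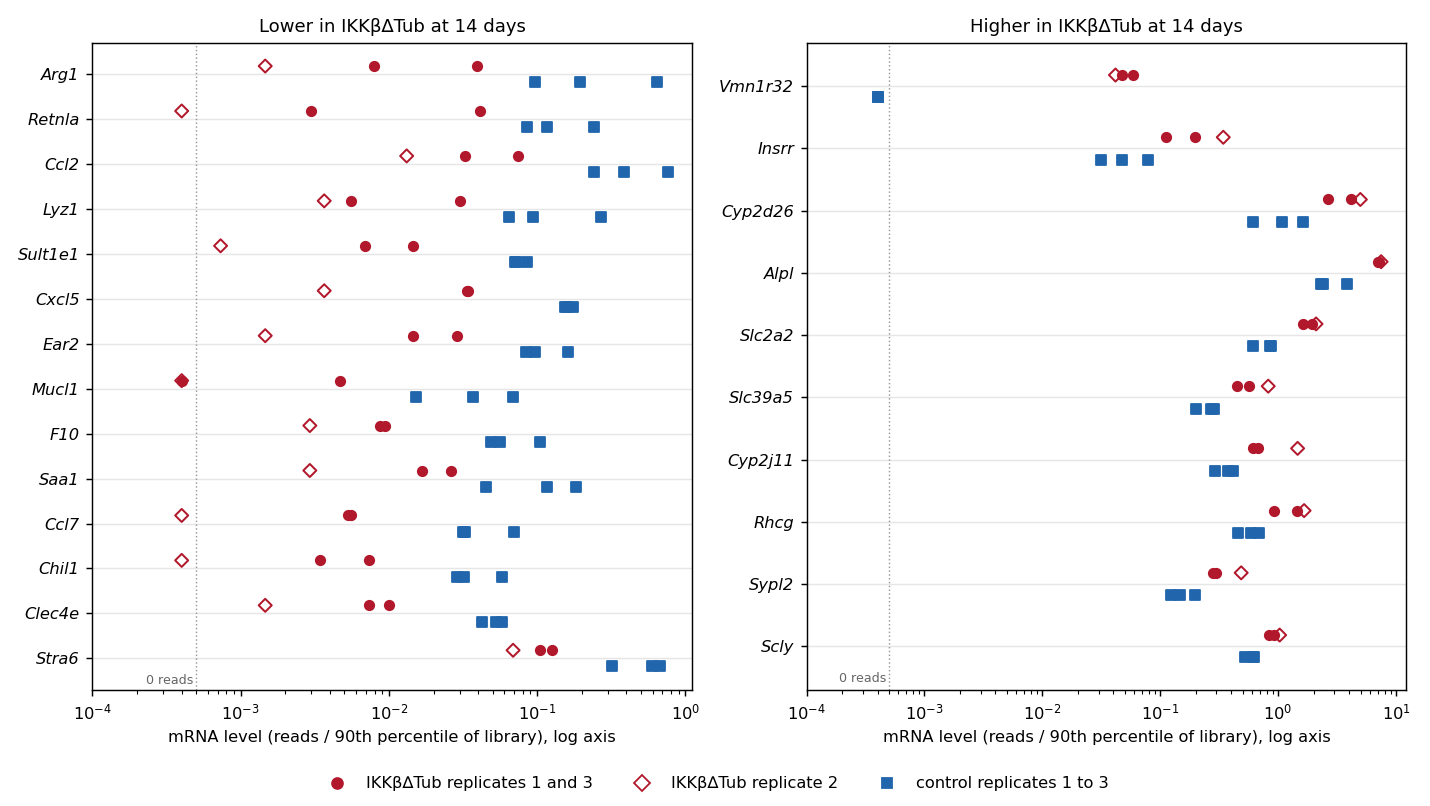
mRNA level (reads divided by the 90th percentile of the library, log axis) of the genes with the largest differences past an adjusted p under 0.05 at 14 days, lower in IKKβ∆Tub on the left and higher on the right. Red marks are IKKβ∆Tub libraries (open diamonds, replicate 2), blue squares control libraries, and marks left of the dotted line had 0 reads. The strains do not overlap in any gene shown. Arg1 is lowest at 0.00146 in IKKβ∆Tub replicate 2, and Alpl lies at 7.08 to 7.48 in IKKβ∆Tub and at 2.29 to 3.86 in control.

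The 49 lower genes included 5 chemokine genes. Ccl2, the monocyte chemoattractant MCP-1, had levels of 0.0326, 0.0132 and 0.0739 in IKKβ∆Tub and 0.762, 0.383 and 0.241 in control. Its log2 fold change was -3.47 (SE 0.49, adjusted p = 0.0046 from limma), and -2.94 (adjusted p = 0.026) without IKKβ∆Tub replicate 2. Every IKKβ∆Tub library lay below the lowest control library, in a gene counted with 18 to 111 reads in IKKβ∆Tub and 396 to 821 reads in control. Ccl7, a second monocyte chemoattractant, had 0.00558, 0 and 0.00533 in IKKβ∆Tub and 0.0696, 0.0326 and 0.0316 in control (log2 fold change -2.52, SE 0.35, adjusted p = 0.00348). Cxcl5, a neutrophil chemoattractant, had 0.0335, 0.00366 and 0.0340 in IKKβ∆Tub and 0.174, 0.159 and 0.153 in control (log2 fold change -2.83, adjusted p = 0.0313, and 0.103 without replicate 2). The T cell and monocyte chemoattractant Ccl5 fell by 2.30 and the monocyte chemoattractant Ccl8 by 2.16 on the log2 scale, and both missed the threshold without replicate 2 (-1.71, adjusted p = 0.176, and -1.92, adjusted p = 0.194). Ccl2, Ccl7, Ccl8 and Ccl5 lie in a cluster on chromosome 11, and reads that fit more than 1 of such related genes could be shared between them.

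Genes of macrophage activation were also among those that fell. Arg1, the arginase of alternatively activated macrophages that also occurs in tubules, had 0.0390, 0.00146 and 0.00799 in IKKβ∆Tub and 0.643, 0.0966 and 0.193 in control. This was the largest fall among the 49 genes (log2 fold change -3.93, SE 0.72, adjusted p = 0.0313), and it missed the threshold without replicate 2 (-3.30, adjusted p = 0.151). Retnla, another gene of alternative activation, had 0.00300, 0 and 0.0413 in IKKβ∆Tub and 0.242, 0.0848 and 0.116 in control (log2 fold change -3.50, adjusted p = 0.0265, and 0.134 without replicate 2). Lyz1, a lysozyme, fell by 3.07 and Ear2, an eosinophil-associated ribonuclease, by 2.82, both members of families of near-identical genes whose reads could be split. Chil1, a chitinase-like protein of activated macrophages, fell by 2.41, and the pattern recognition receptors Clec4e and Clec4n, neighbours on chromosome 6, fell by 2.39 and 2.29. Saa1, an acute phase protein, had 0.0262, 0.00293 and 0.0166 in IKKβ∆Tub and 0.182, 0.117 and 0.0450 in control (log2 fold change -2.58, adjusted p = 0.0313, and -2.01 without replicate 2). Of these genes Ear2 passed the adjusted p without replicate 2 (0.0265), whereas Arg1, Retnla, Lyz1, Chil1, Clec4e, Clec4n and Saa1 did not.

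Lymphocyte regulators were also among the lower genes at low counts. Foxp3, the transcription factor of regulatory T cells, had 11, 3 and 3 reads in IKKβ∆Tub and 23, 17 and 19 reads in control. Its level differed by -1.22 (adjusted p = 0.0346) and the inhibitory receptor gene Pdcd1 by -1.36 (adjusted p = 0.0243). The T cell surface gene Cd5 fell by 1.08, and differed by -1.08 without replicate 2. Cd226, an activating receptor of T and NK cells, and Igkv5-43, an immunoglobulin light chain segment, completed this group with differences of -1.22 and -1.64. Without replicate 2 none of these 5 genes passed the adjusted p (Foxp3 0.153, Pdcd1 0.134, Cd5 0.153, Cd226 0.194 and Igkv5-43 0.134 by limma), and the differences were -1.15 for Foxp3, -1.16 for Pdcd1, -1.13 for Cd226 and -1.71 for Igkv5-43, each with an unadjusted p under 0.05.

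Other lower genes have roles in metabolism, coagulation, matrix breakdown and signalling. Sult1e1, the estrogen sulfotransferase, had 0.00686, 0.000732 and 0.0146 in IKKβ∆Tub and 0.0853, 0.0710 and 0.0717 in control (log2 fold change -2.87, SE 0.32, adjusted p = 0.000554, and 0.00107 without replicate 2). F10, coagulation factor X, had 0.00944, 0.00293 and 0.00866 in IKKβ∆Tub and 0.104, 0.0491 and 0.0559 in control. It fell by 2.61 (SE 0.29, adjusted p = 0.000554), and its neighbour F7, coagulation factor VII, by 1.75 (adjusted p = 0.0127). Both coagulation genes remained past the threshold without replicate 2. Mmp9, the gelatinase MMP9, had 0.0189, 0.0132 and 0.0206 in IKKβ∆Tub and 0.108, 0.0939 and 0.0881 in control. Replicate 2 was not set apart here, and the log2 fold change of -2.18 (SE 0.27, adjusted p = 0.00138) was -2.03 without it. Mucl1, a mucin-like gene (log2 fold change -2.67), Pcsk2, a prohormone convertase (-1.70), and Sphkap, an anchoring protein for protein kinase A (-1.65), also passed the adjusted p with and without that library. Mucl1 had 0, 0 and 7 reads in IKKβ∆Tub and 74, 69 and 25 reads in control, and missed the threshold with edgeR (adjusted p = 0.105) and DESeq2 (0.517). Stra6, the receptor for retinol-binding protein, had 0.125, 0.0688 and 0.105 in IKKβ∆Tub and 0.598, 0.670 and 0.322 in control (log2 fold change -2.33, adjusted p = 0.0313, and 0.150 without replicate 2). The remaining lower genes had log2 fold changes between -2.13 (AA467197) and -1.01 (Il1f9). Ptafr, the receptor for platelet-activating factor, was among those of higher level, with 0.108, 0.0381 and 0.0799 in IKKβ∆Tub and 0.254, 0.265 and 0.254 in control (-1.82, adjusted p = 0.0234, and 0.0827 without replicate 2), as was Pltp, the phospholipid transfer protein, with 0.455, 0.149 and 0.286 in IKKβ∆Tub and 0.782, 0.756 and 0.756 in control (-1.49, adjusted p = 0.0346, and 0.134 without replicate 2).

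The 11 higher genes included transporters and enzymes of the tubule. Alpl, tissue-nonspecific alkaline phosphatase of the proximal brush border, had 7.24, 7.48 and 7.08 in IKKβ∆Tub and 3.86, 2.29 and 2.41 in control. Its rise of 1.39 (SE 0.20, adjusted p = 0.00633) was 1.37 without replicate 2 (adjusted p = 0.0306), and the 3 IKKβ∆Tub libraries were close to each other. Slc2a2, the basolateral glucose transporter GLUT2 of the proximal tubule, had 1.93, 2.10 and 1.64 in IKKβ∆Tub and 0.865, 0.618 and 0.850 in control (log2 fold change 1.28, SE 0.21, adjusted p = 0.0127, and 0.0827 without replicate 2). Rhcg, the ammonia transporter of intercalated cells, had 0.914, 1.66 and 1.45 in IKKβ∆Tub and 0.586, 0.461 and 0.683 in control (1.18, adjusted p = 0.0346, and 1.01 without replicate 2). Insrr, a receptor that senses alkaline pH, had 0.112, 0.343 and 0.199 in IKKβ∆Tub and 0.0473, 0.0315 and 0.0784 in control (1.90, adjusted p = 0.0346, and 1.51 without replicate 2). These transport and pH-sensing genes were highest in replicate 2, yet replicates 1 and 3 also lay above every control library. The cytochrome P450 genes Cyp2d26 and Cyp2j11 rose by 1.88 and 1.23, members of gene families whose reads could be shared. The predicted gene Gm10639 rose by 2.56, Slc39a5, a zinc transporter, by 1.25, Sypl2, a synaptophysin-like protein, by 1.14 and Scly, selenocysteine lyase, by 0.67. Alpl and Vmn1r32 were the higher genes that passed the adjusted p without replicate 2.

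NF-κB pathway genes and their inflammatory targets were described from lists drawn up with earlier results of these data known. Of 31 tested inflammatory NF-κB targets 24 were lower by the p and fold filter and none higher, where 7.36% of all genes were lower. Their median log2 fold change was -1.46, and 5 passed the adjusted p (Ccl2, Ccl7, Cxcl5, Ccl5 and Mmp9). Without replicate 2 the filter kept 15, with a median of -0.98. The summed level of the list was 37.0, 11.6 and 39.8 in IKKβ∆Tub and 80.6, 71.7 and 61.2 in control, so replicates 1 and 3 also lay below each control library.

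The targets that missed the adjusted p covered cytokines, adhesion molecules and secreted proteins. Ccl20, which attracts CCR6-positive lymphocytes, had 0.00643, 0.00293 and 0.0313 in IKKβ∆Tub and 0.0937, 0.0432 and 0.0912 in control (log2 fold change -2.37, adjusted p = 0.0565, and -1.92 without replicate 2). Tnf, the cytokine that itself activates IKKβ, had 0.0133, 0.00512 and 0.00999 in IKKβ∆Tub and 0.0482, 0.0187 and 0.0456 in control (-1.51, adjusted p = 0.0639, and -1.27 without replicate 2). For Lcn2, the secreted injury marker NGAL, levels were 3.49, 0.540 and 2.69 in IKKβ∆Tub and 6.36, 7.56 and 6.64 in control (-1.99, adjusted p = 0.139, and -1.16 without replicate 2). The ranges of Ccl20, Tnf and Lcn2 did not overlap between strains. The neutrophil chemoattractants Cxcl2 (0.132, 0.00659 and 0.0553 in IKKβ∆Tub, 0.251, 0.204 and 0.210 in control) and Cxcl1 (0.146, 0.0154 and 0.170 in IKKβ∆Tub, 0.540, 0.176 and 0.370 in control) differed by -2.31 and -2.03, and by -1.32 and -1.03 without replicate 2. Their difference leaned on replicate 2, and for Cxcl1 replicate 3 reached 0.170 where the lowest control library had 0.176. Vcam1, an adhesion molecule for leukocytes, had 2.49, 0.406 and 2.26 in IKKβ∆Tub and 6.87, 4.58 and 3.68 in control (-1.88, adjusted p = 0.0949, and -1.04 without replicate 2).

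Within the pathway itself, genes of feedback and survival were among those past the filter. Of 26 tested IKK and NF-κB pathway genes 7 were lower by the filter and none higher, with a median of -0.36 (4 genes and -0.16 without replicate 2). Tnfaip3, which encodes the ubiquitin-editing inhibitor A20, had 0.544, 0.268 and 0.445 in IKKβ∆Tub and 0.815, 0.801 and 0.995 in control (log2 fold change -1.10, adjusted p = 0.0915, and -0.81 without replicate 2). The antiapoptotic ubiquitin ligases Birc3 (0.706, 0.236 and 0.643 in IKKβ∆Tub, 1.04, 1.28 and 1.02 in control) and Birc2 (0.958, 0.677 and 1.14 in IKKβ∆Tub, 2.47, 1.52 and 1.36 in control) differed by -1.21 and -0.93, and by -0.71 and -0.72 without replicate 2. For these inhibitors and survival genes the ranges were apart in all 3. Traf1, an adaptor of TNF receptors, Nfkbie, the inhibitor IκBε, Nfkbiz, the nuclear inhibitor IκBζ, and Rel, the subunit c-Rel, had log2 fold changes of -1.11, -1.07, -0.78 and -0.61. Chuk, which encodes the partner kinase IKKα, had 1.57, 2.60 and 1.24 in IKKβ∆Tub and 1.48, 1.75 and 1.32 in control, ranges that overlapped (log2 fold change 0.19, and -0.11 without replicate 2).

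**Figure D2:**
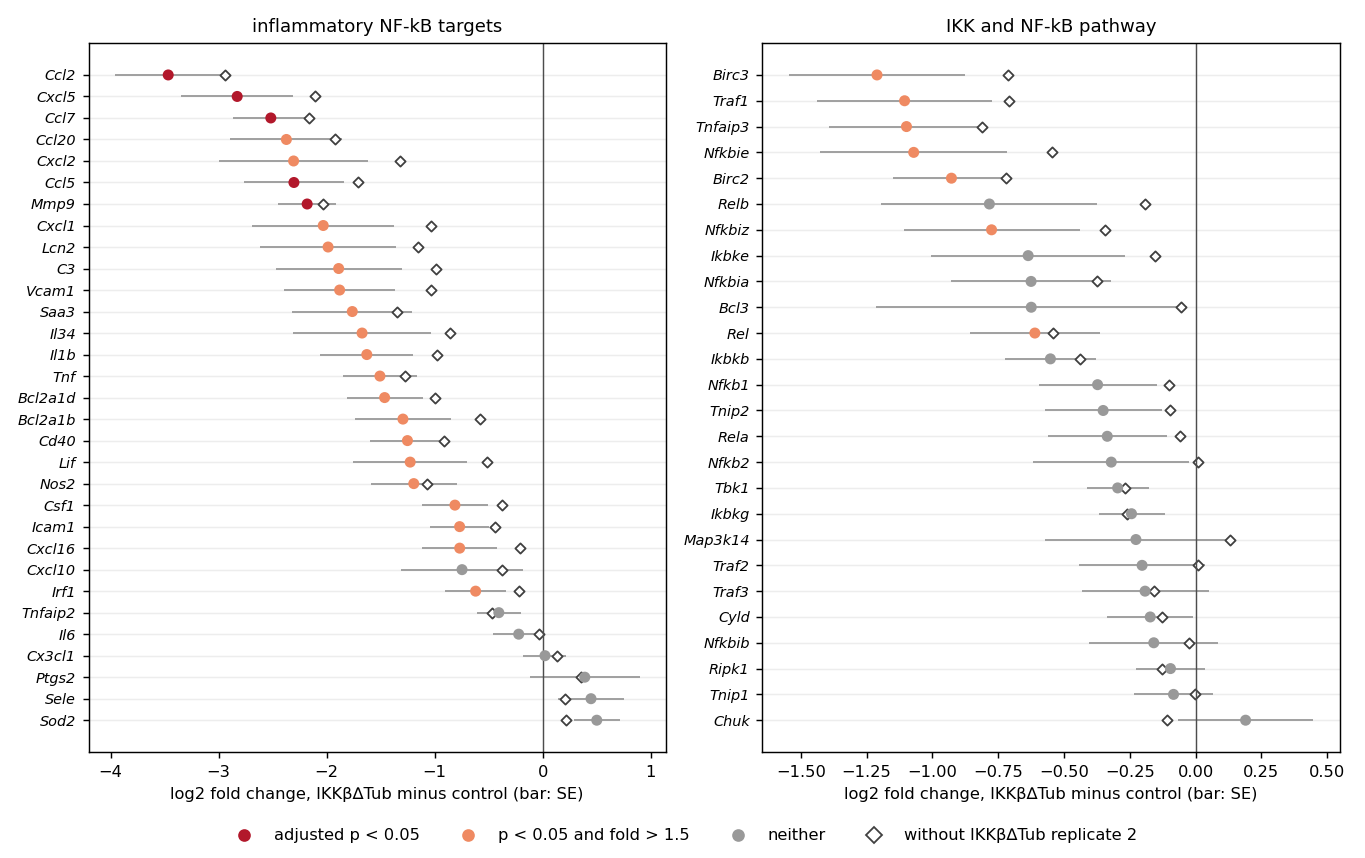
Log2 fold change at 14 days, IKKβ∆Tub minus control, of the inflammatory NF-κB targets (left) and the IKK and NF-κB pathway genes (right), with bars for 1 SE. Dark red marks genes with an adjusted p under 0.05, light red genes past the p and fold filter, grey the others, and open diamonds the value without IKKβ∆Tub replicate 2. Ccl2 lies lowest of the targets at -3.47, and 25 of 26 pathway genes lie below 0.

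The promoters of 4 of these genes are shown because their mRNA levels differed and their sequences hold the κB consensus, to which NF-κB dimers bind. They were the genes of smallest p among those of the target and pathway lists that passed the p and fold filter and had a match. The window of RefSeq on GRCm38.p6 spans 250 bases before and 50 after the start site, and 150 bases before the start site are printed 5′ to 3′ on the strand of the gene. Capitals mark a match to the 10-letter κB consensus on either strand.
Ccl20 (chr1:83116616-83116765, plus strand): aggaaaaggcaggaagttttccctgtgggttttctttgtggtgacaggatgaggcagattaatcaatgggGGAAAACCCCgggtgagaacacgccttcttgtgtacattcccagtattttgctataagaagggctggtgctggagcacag
Tnfaip3 (chr10:19015411-19015560, minus strand): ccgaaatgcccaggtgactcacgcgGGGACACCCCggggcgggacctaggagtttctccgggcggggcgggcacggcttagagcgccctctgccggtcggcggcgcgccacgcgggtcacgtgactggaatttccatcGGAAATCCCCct
Cxcl2 (chr5:90903749-90903898, plus strand): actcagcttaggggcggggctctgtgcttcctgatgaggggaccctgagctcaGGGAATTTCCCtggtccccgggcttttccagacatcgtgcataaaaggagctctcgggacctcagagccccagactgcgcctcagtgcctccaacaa
Cxcl1 (chr5:90891095-90891244, plus strand): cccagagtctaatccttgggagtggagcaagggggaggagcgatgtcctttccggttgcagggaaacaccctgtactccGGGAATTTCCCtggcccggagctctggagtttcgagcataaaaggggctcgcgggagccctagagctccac
The match began 80 bases before the start site in Ccl20 and 125 and 12 bases before it in Tnfaip3. Cxcl2 and Cxcl1, neighbours on chromosome 5, hold the same 11 capitals, in which 2 overlapping matches begin at 97 and 96 bases and at 71 and 70 bases. Of the 31 target and pathway genes past the filter 20 had a window, and 8 of these held a match. Among all 32851 promoter windows 4.51% held a match, and among the 12056 genes tested here with a window 6.4% did. The share was 38.1% of 21 inflammatory targets and 40.9% of 22 pathway genes, lists whose members were chosen as NF-κB genes. It was 16.7% of 36 genes that fell past the adjusted p (6 genes), and none of the 10 that rose held one. By the p and fold filter it was 9.56% of 868 lower genes and 7.9% of 367 higher genes. A match describes the letters of the window and not binding.

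Immune cell lists had medians below 0. In whole kidney RNA fewer cells of a type and less RNA per cell cannot be told apart. Of 20 macrophage genes 18 were lower by the p and fold filter and none higher, with a median of -1.47 (12 genes and -0.80 without replicate 2), where all genes had -0.05. The summed macrophage level was 18.2, 3.34 and 15.1 in IKKβ∆Tub and 35.9, 32.1 and 27.6 in control. None of the 20 passed the adjusted p. Csf1r, the receptor that maintains macrophages, came nearest with 1.60, 0.827 and 1.03 in IKKβ∆Tub and 2.11, 2.38 and 2.28 in control (log2 fold change -1.02, adjusted p = 0.0546, and -0.81 without replicate 2). For Lyz2, the macrophage lysozyme, levels were 4.73, 0.433 and 3.66 in IKKβ∆Tub and 13.0, 10.1 and 8.57 in control (-2.41, adjusted p = 0.0690, and -1.32 without replicate 2). Ccr2, the receptor for Ccl2 on monocytes, had 0.395, 0.0747 and 0.384 in IKKβ∆Tub and 1.32, 0.679 and 0.761 in control (-1.93, adjusted p = 0.0935, and -1.16 without replicate 2). In each of these macrophage genes the strains did not overlap, and IKKβ∆Tub replicate 2 was the lowest library.

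Genes of antigen presentation, complement, lymphocytes and neutrophils were likewise lower by the filter. Of 9 MHC class II genes 8 were lower (median -1.65, and 6 genes and -0.88 without replicate 2). Cd74, the invariant chain, had 6.51, 1.78 and 10.9 in IKKβ∆Tub and 24.2, 18.4 and 14.6 in control (log2 fold change -1.89, adjusted p = 0.0639, and -1.14 without replicate 2). Of 12 complement genes 11 were lower (median -1.15, and 8 genes and -0.72 without replicate 2). C3, the central component that injured tubules also make, had 21.4, 3.46 and 23.6 in IKKβ∆Tub and 50.7, 46.3 and 37.9 in control (-1.89, adjusted p = 0.130, and -0.99 without replicate 2). Cfp, properdin, had 0.140, 0.0425 and 0.152 in IKKβ∆Tub and 0.381, 0.251 and 0.280 in control (-1.57, adjusted p = 0.0546, and -1.01 without replicate 2). No range of these 3 genes overlapped between strains. Of 19 T, NK and B cell genes 12 were lower (median -1.05, and 7 genes and -0.59 without replicate 2), and of 7 tested neutrophil genes 5 were lower (median -1.38, and 5 genes and -0.98 without it). The neutrophil receptor gene Cxcr2 passed the adjusted p with 0.00901, 0.000732 and 0.00932 in IKKβ∆Tub and 0.0649, 0.0352 and 0.0328 in control (-2.18, adjusted p = 0.0392), and missed it without replicate 2 (-1.74, adjusted p = 0.187). The calprotectin genes S100a8 and S100a9 differed by -2.36 and -2.37 without passing it. Interferon response genes differed less, with 4 of 20 lower and a median of -0.40 (2 genes and -0.17 without replicate 2). Mx1, an antiviral GTPase, had 0.0232, 0.0124 and 0.0366 in IKKβ∆Tub and 0.0816, 0.0683 and 0.0559 in control (-1.41, adjusted p = 0.0546, and -1.09 without replicate 2).

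**Figure D3:**
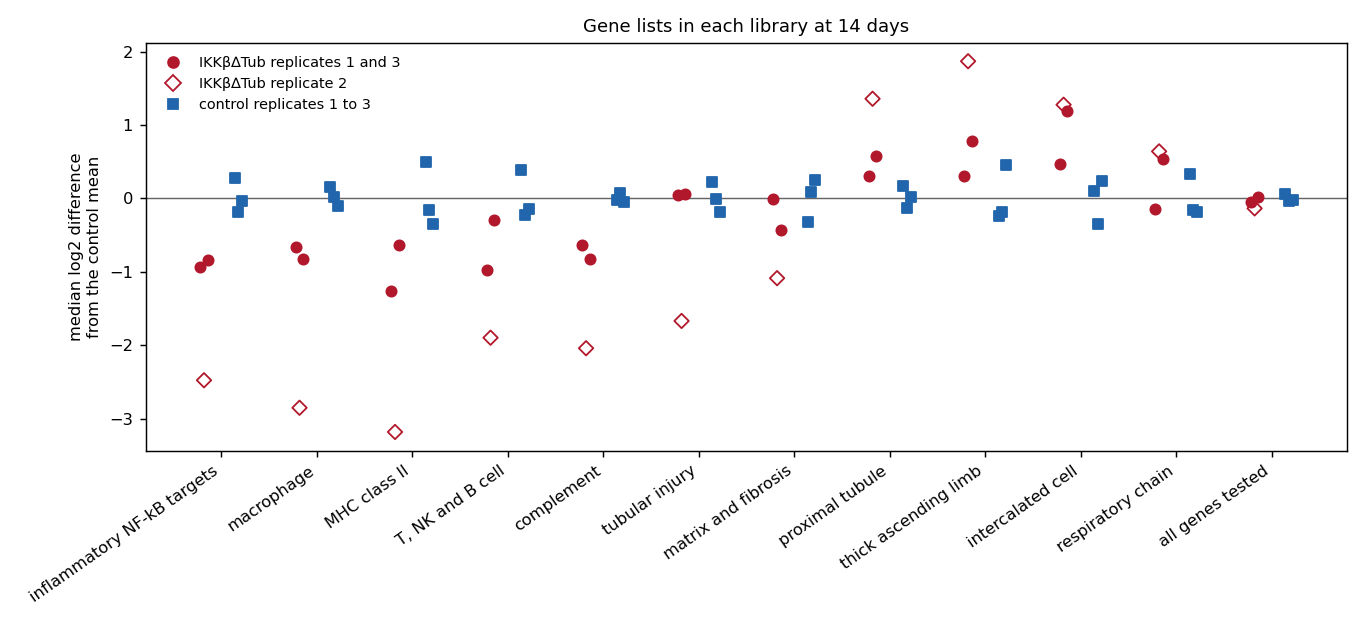
Median over the genes of a list of the log2 difference between a library and the control mean at 14 days, for 11 gene lists and all genes tested. Red marks are IKKβ∆Tub libraries (open diamonds, replicate 2) and blue squares control libraries. IKKβ∆Tub replicate 2 lies farthest from 0 in most lists, at -2.85 for macrophage genes, where IKKβ∆Tub replicates 1 and 3 lie at -0.66 and -0.82. All genes lie between -0.14 and 0.06.

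Injury and matrix genes also depended on replicate 2. Of 27 tubular injury genes 8 were lower by the filter, where 7.36% of all genes were, with a median of -0.48. Without that library 3 genes were lower, where 3.84% of all genes were, and the median was 0.06. Havcr1, which encodes the tubular injury marker KIM-1, had 3.33, 0.247 and 1.77 in IKKβ∆Tub and 3.66, 4.07 and 1.51 in control, with overlapping ranges (log2 fold change -1.31, adjusted p = 0.641). Sox9, a transcription factor of regenerating tubules, had 0.181, 0.0527 and 0.151 in IKKβ∆Tub and 0.329, 0.378 and 0.254 in control (-1.43, adjusted p = 0.102, and -0.91 without replicate 2). Thus Havcr1 did not separate the strains, while Sox9 did without passing the threshold. Of 48 matrix and fibrosis genes 13 were lower (median -0.55, and 6 genes and -0.27 without replicate 2), and Mmp9 alone passed the adjusted p. Relative to the control mean, the matrix median lay at -0.006 in IKKβ∆Tub replicate 1 and at -0.32 in control replicate 1, so the libraries overlapped. The strains did not overlap for 9 lower genes and 1 higher gene of this list. Col3a1, a fibrillar collagen chain, had 1.72, 0.414 and 1.36 in IKKβ∆Tub and 2.73, 3.42 and 3.33 in control (-1.66, adjusted p = 0.188, and -1.04 without replicate 2). Postn, periostin of activated fibroblasts, had 0.0781, 0.0527 and 0.0912 in IKKβ∆Tub and 0.294, 0.209 and 0.213 in control (-1.64, and -1.43 without replicate 2, adjusted p = 0.0971 with all libraries). Lum, lumican, had 0.0618, 0.0615 and 0.0832 in IKKβ∆Tub and 0.203, 0.131 and 0.151 in control (-1.17, adjusted p = 0.0923, and -1.10 without replicate 2). Postn and Lum, unlike most matrix genes, had replicate 2 near the other IKKβ∆Tub libraries.

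Fibrinogen chains, which injured tubules express, were lower in IKKβ∆Tub in each library. Fgb had 0.365, 0.235 and 0.515 in IKKβ∆Tub and 1.81, 1.76 and 1.42 in control (log2 fold change -2.21, SE 0.60, adjusted p = 0.0917, and -1.92 without replicate 2). Fgg had 1.92, 3.05 and 3.18 in IKKβ∆Tub and 9.92, 11.3 and 4.90 in control (-1.63, adjusted p = 0.260). The ranges of the 3 fibrinogen genes were apart and their median was -1.63 with and -1.73 without replicate 2, although none passed the adjusted p. Among the libraries without Y-linked expression the median was -0.89. Of 37 proliferation genes 5 were lower and 1 higher by the filter, where 7.36% and 3.17% of all genes were. Their median was -0.43, and -0.45 without replicate 2. Below 0 lay 36 of the 37 (30 without replicate 2), where 57.6% of all genes did with all libraries. The strains did not overlap for 17 lower genes and 1 higher gene of the list, where 9.07% and 4.44% of all genes were apart. The mitotic kinase gene Aurkb had 0.0107, 0.00659 and 0.0133 in IKKβ∆Tub and 0.0278, 0.0309 and 0.0304 in control (-1.22, adjusted p = 0.164, and -1.03 without replicate 2). Tyms, thymidylate synthase, lay the other way with 0.161, 0.137 and 0.196 in IKKβ∆Tub and 0.134, 0.0827 and 0.106 in control (0.60, adjusted p = 0.148, and 0.73 without replicate 2). Proliferation genes were thus among the lists whose difference was as large without replicate 2, although their median was -0.19 with a pseudocount of 0.05.

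Genes of tubular transport were higher in IKKβ∆Tub along the nephron, with the largest values in replicate 2. Of 33 proximal tubule genes 14 were higher by the p and fold filter and none lower, where 3.17% of all genes were higher, and the median was 0.71 (6 genes and 0.46 without replicate 2). Cubn, the endocytic receptor cubilin, had 2.49, 4.69 and 2.24 in IKKβ∆Tub and 1.47, 1.01 and 1.38 in control (log2 fold change 1.22, adjusted p = 0.0546, and 0.89 without replicate 2), and its partner Lrp2, megalin, had 6.62, 19.0 and 5.27 in IKKβ∆Tub and 3.76, 2.85 and 4.16 in control (1.3, adjusted p = 0.124, and 0.74 without replicate 2). Slc7a7, the basolateral exporter of cationic amino acids, had 2.39, 1.86 and 3.06 in IKKβ∆Tub and 1.62, 1.11 and 1.43 in control (0.80, and 0.98 without replicate 2, adjusted p = 0.0639 with all libraries). Among these proximal genes Slc7a7 was lowest in replicate 2 of the IKKβ∆Tub libraries, unlike Cubn and Lrp2. Slc22a8, the organic anion transporter OAT3, had 0.801, 3.90 and 1.59 in IKKβ∆Tub and 0.436, 0.358 and 0.924 in control, with replicate 1 below the highest control library (1.69, adjusted p = 0.0846, and 1.1 without replicate 2). Some of these transporters differ between the sexes in mouse kidney, and the median of the list was 0.84 among the libraries without Y-linked expression and 0.96 with Y-linked expression as a covariate.

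In the downstream segments the medians also lay above 0, while the libraries of the strains overlapped in part. For the thick ascending limb list the median relative to the control mean was 0.30 in IKKβ∆Tub replicate 1 and 0.46 in control replicate 3, and for the distal list 0.06 in IKKβ∆Tub replicate 1 and 0.30 in control replicate 3. Of 10 genes of the thick ascending limb 5 were higher (median 0.73, and 5 genes and 0.57 without replicate 2). Egf, made by this segment and the distal tubule, had 1.54, 30.05 and 2.21 in IKKβ∆Tub and 0.321, 0.436 and 1.68 in control (log2 fold change 2.91, SE 0.85, adjusted p = 0.115, and 1.57 without replicate 2). The value of Egf in replicate 2 stood far above those of the other 5 libraries. Slc12a1, the cotransporter NKCC2, had 3.54, 11.8 and 3.14 in IKKβ∆Tub and 1.39, 1.83 and 2.63 in control (1.43, adjusted p = 0.121, and 0.82 without replicate 2). Of 10 intercalated cell genes 7 were higher with and without replicate 2 (median 0.99 and 0.79), and Rhcg passed the adjusted p. Slc4a1, the chloride/bicarbonate exchanger AE1 of acid-secreting cells and red cells, had 0.0446, 0.361 and 0.0652 in IKKβ∆Tub and 0.0130, 0.00854 and 0.0304 in control (2.40, adjusted p = 0.0639, and 1.53 without replicate 2). The 5 red blood cell genes had a median of -0.09, which ranged from -0.70 to 0.56 over the alternatives. Atp6v1b1, a proton pump subunit, had 0.641, 0.916 and 0.997 in IKKβ∆Tub and 0.501, 0.332 and 0.550 in control (0.88, adjusted p = 0.0639, and 0.82 without replicate 2). For Slc4a1 and Atp6v1b1, IKKβ∆Tub replicates 1 and 3 lay above every control library. Of 16 genes of the distal tubule and principal cell 7 were higher (median 0.65, and 3 genes and 0.41 without replicate 2), and the strains did not overlap in 1. Among the libraries without Y-linked expression the distal median was 0.39 and that of the thick ascending limb 0.47. The distal genes included Aqp2, the water channel of principal cells, with 0.942, 4.43 and 3.11 in IKKβ∆Tub and 0.878, 0.447 and 1.53 in control (1.47, adjusted p = 0.160, and 1.02 without replicate 2).

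**Figure D4:**
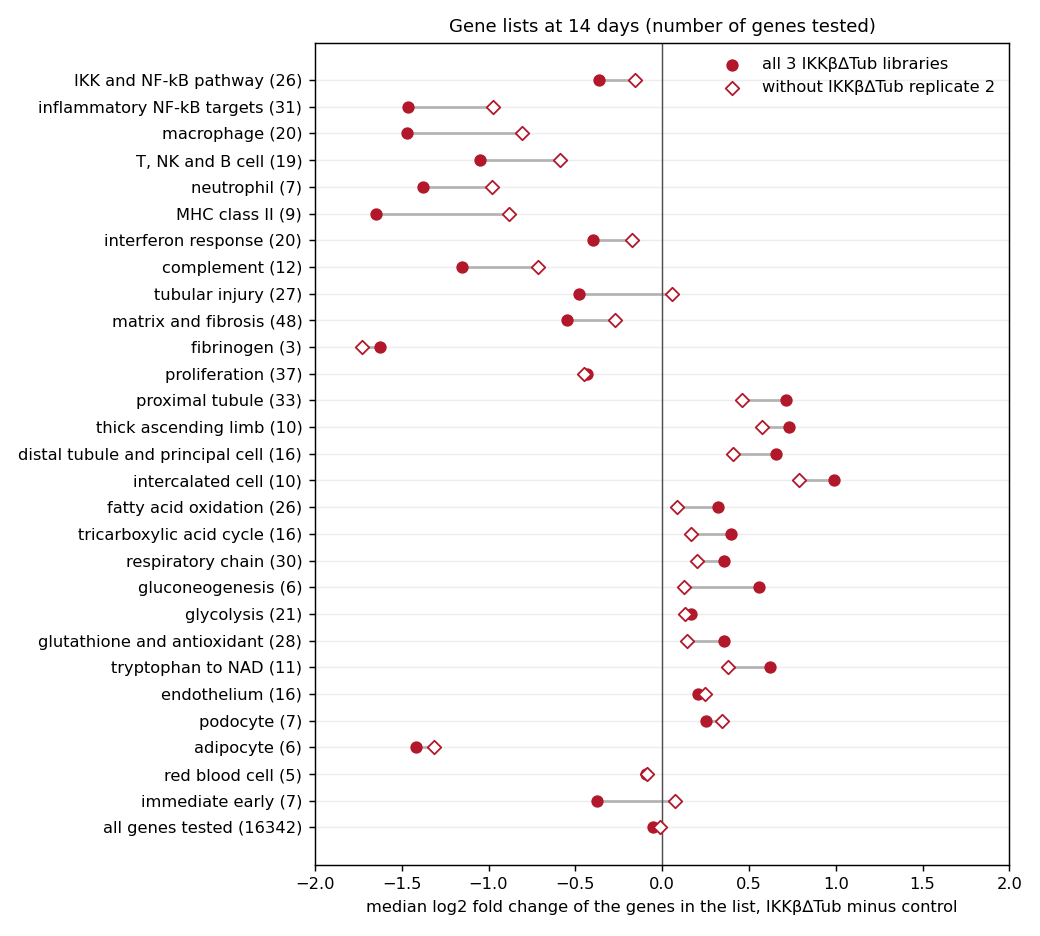
Median log2 fold change at 14 days, IKKβ∆Tub minus control, of 28 gene lists and of all genes tested, with the number of genes tested in brackets. Filled circles use all 3 IKKβ∆Tub libraries and open diamonds leave out replicate 2. Immune, complement and fibrinogen lists lie among the lowest, at -1.65 for MHC class II genes, and the intercalated cell list highest at 0.99. The tubular injury median moves to 0.06 when replicate 2 is left out.

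Metabolic lists had medians from 0.16 (glycolysis) to 0.62 (tryptophan to NAD), and few genes passed the filter outside the glutathione and tryptophan lists. Over all genes tested 3.17% were higher and 7.36% lower by it, and 1.37% and 3.84% without replicate 2. In the tricarboxylic acid cycle (16 genes) and the respiratory chain (30 genes) every log2 fold change lay above 0 with and without replicate 2. The medians were 0.39 and 0.36 with it and only 0.17 and 0.20 without it. The filter passed 2 and 0 genes with it and 0 and 0 without it. Relative to the control mean, the respiratory chain median lay at -0.15 in IKKβ∆Tub replicate 1 and at 0.33 in control replicate 1, so the libraries overlapped. Of 26 genes of fatty acid oxidation 1 was higher (median 0.32, and 0 genes and 0.08 without replicate 2), and of 6 gluconeogenesis genes none was (0.56 and 0.13). Of 28 glutathione and antioxidant genes 7 were higher and 1 lower (median 0.36). Without replicate 2, 5 were higher and 1 lower (median 0.14). Gstk1, a mitochondrial and peroxisomal glutathione transferase, had 0.330, 0.655 and 0.468 in IKKβ∆Tub and 0.307, 0.172 and 0.230 in control (log2 fold change 1.00, adjusted p = 0.0639, and 0.76 without replicate 2). Of 11 genes that lead from tryptophan to NAD 6 were higher and 1 lower (median 0.62). Without replicate 2, 1 was higher and 1 lower (median 0.38). Kynu, kynureninase, had 0.286, 0.469 and 0.282 in IKKβ∆Tub and 0.148, 0.0619 and 0.190 in control (1.44, adjusted p = 0.248, and 1.20 without replicate 2). Of 21 glycolysis genes Hk1 was higher and Pfkfb3 lower by the filter (median 0.16). Without replicate 2, 0 were higher and 1 lower by the filter (median 0.13). None of 7 immediate early genes passed it (median -0.37, and 0.08 without replicate 2). Endothelial genes (2 of 16 higher, median 0.21) and podocyte genes (0 of 7, median 0.25) differed little. Without replicate 2 neither list had a gene past the filter, and the medians were 0.25 and 0.35. For the endothelial list the median was -0.03 among the libraries without Y-linked expression.

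The study named 34 genes for this time point from these same libraries, so that their directions are no independent evidence. Of these 11 were higher and 15 lower by the p and fold filter, where 3.17% and 7.36% of all genes were, and Mmp9 passed the adjusted p. Without replicate 2, 5 were higher and 9 lower, and the median moved to 0.01, where it was -0.32 with all libraries. Of the genes of vessel growth among them, Lrg1 had 0.297, 0.114 and 0.236 in IKKβ∆Tub and 0.680, 0.634 and 0.432 in control (log2 fold change -1.49, adjusted p = 0.200, and -1.10 without replicate 2). The prostaglandin F receptor gene Ptgfr had 0.370, 0.871 and 0.517 in IKKβ∆Tub and 0.276, 0.323 and 0.347 in control (0.80, adjusted p = 0.0971, and 0.47 without replicate 2). Neither overlapped between strains.

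Baseline kidneys, compared between the same strains in 6 other libraries, show which differences preceded injury. Of the 60 genes past the adjusted p at 14 days 1 passed it at baseline, Vmn1r32. The baseline median was 0.09 for the 49 lower genes and -0.27 for the 11 higher genes. Among the lists, the baseline median was 0.02 for inflammatory NF-κB targets, -0.41 for macrophage and MHC class II genes and 1.63 for neutrophil genes, where all genes had -0.09. For proliferation genes it was -0.49 and for interferon response genes -0.40, close to their medians of -0.43 and -0.40 at 14 days. The sexes were arranged the other way at baseline, where Y-linked expression was present in IKKβ∆Tub replicates 2 and 3 and in no control library, so sex also differs in any change between the times. The difference between the times (the strain difference at 14 days minus that at baseline) passed the adjusted p in 19 genes, 12 below 0 and 7 above it. Of the 60 genes 12 were among them. With Y-linked expression as a covariate no gene passed it by limma, while 1728 genes had an unadjusted p under 0.05. Without the covariate edgeR called 39 genes and DESeq2 861. Ccl2 at baseline had 0.00756, 0.0124 and 0.00808 in IKKβ∆Tub and 0.00195, 0.00552 and 0.0101 in control, near the level of few reads and overlapping. Alpl at baseline had 9.72, 10.6 and 9.98 in IKKβ∆Tub and 12.0, 13.5 and 11.0 in control, so that the strains lay in the opposite order from 14 days. Pfkfb3, whose product raises glycolytic flux, had 0.667, 0.633 and 0.857 in IKKβ∆Tub and 1.12, 1.25 and 1.18 in control at 14 days (log2 fold change -0.72, SE 0.19, adjusted p = 0.0842). At baseline it had 0.860, 1.3 and 1.14 in IKKβ∆Tub and 0.446, 0.396 and 0.505 in control (1.27, adjusted p = 0.0192). Pfkfb3 thus separated the strains at both times in opposite directions, and IKKβ∆Tub replicate 2 lay close to replicate 1 at 14 days.

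**Figure D5:**
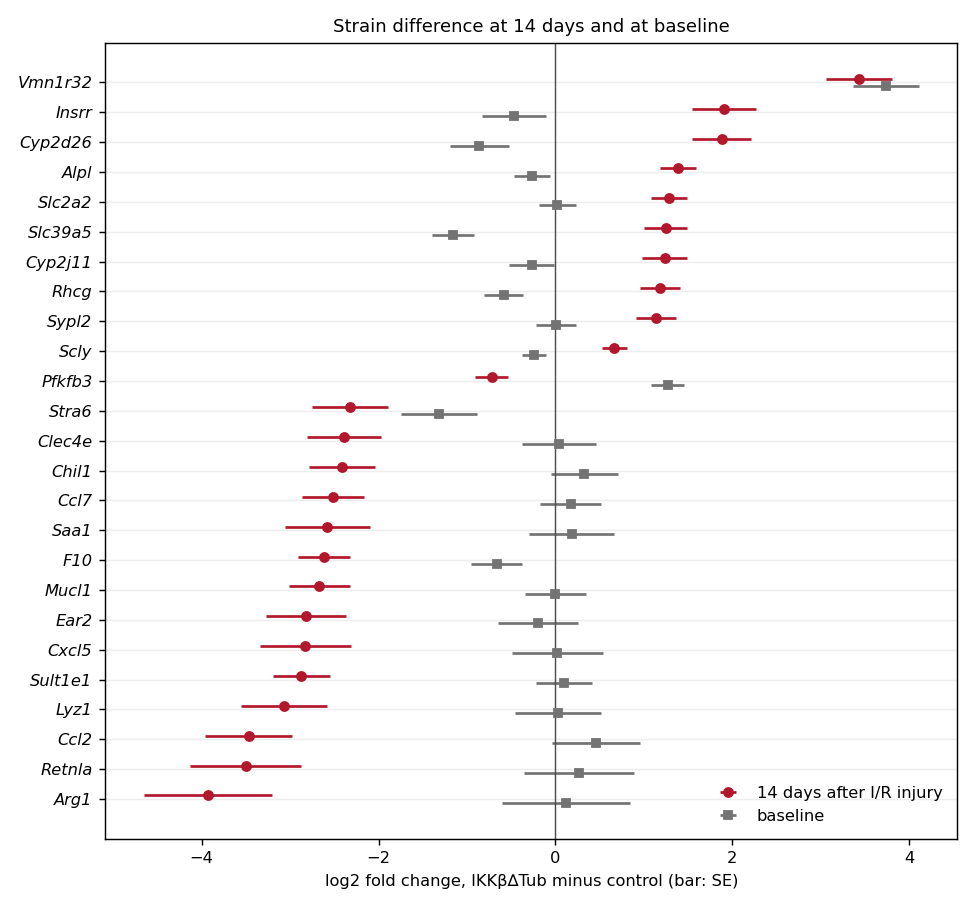
Log2 fold change, IKKβ∆Tub minus control, with bars for 1 SE, at 14 days (red circles) and at baseline (grey squares), for the genes with the largest differences past the adjusted p at 14 days and for Pfkfb3. Vmn1r32 lies high at both times, Ccl2 at -3.47 at 14 days and at 0.46 at baseline, and Pfkfb3 at -0.72 and at 1.27.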

How the data were processed

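Poly(A)-selected, stranded mRNA libraries of whole kidney were sequenced on a NovaSeq. The submitters' processing notes name FastQC 0.11, Trim Galore 0.4, STAR 2.5.2b, featureCounts 1.5.2, StringTie 1.3.3b, MultiQC 1.4, R 3.6.3, DESeq2 1.26.0 and GRCm38. The authors deposited, as a normalised signal, gene read counts scaled to the 90th percentile of each library. All values (100%) were whole multiples of 1 read within 0.001, so read counts were recovered. Whether reads were counted by strand, and how reads of several genes were treated, is not given in the sources used here. Counts per library set the precision, and floors cover counting error only.

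Genes that reached 0.005 in 3 or more of 18 libraries were kept (16342 of 29307). limma 3.58.1 in R 4.3.3 was fitted to log2(value + 0.005) over 6 groups of 3 libraries with a trended prior variance, and p-values were adjusted after Benjamini-Hochberg over all genes. Fold changes are on that scale, which understates those of low genes. edgeR 4.0.16 and DESeq2 1.42.0 on the recovered reads, other pseudocounts (0.05 and 0.001) and filters, median ratio scaling, subsets of the libraries, a Y-linked covariate and a replicate block were the alternatives. The main limma fit, edgeR and DESeq2 were also run on simulated data, and the other alternatives were not. With 3 libraries against 3 an exact permutation test cannot go below p = 0.1, and none is given. Gene positions are those of GENCODE M21 on GRCm38, matched by identifier for 16310 genes, because the gene starts in the deposited table differ from that build.

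The comparison, the 32 gene lists and the tests were chosen with earlier results of these data known. Named genes are Ikbkb and Vmn1r32, the 15 largest falls and 10 largest rises past the adjusted p without overlap of the strains and with a gene symbol, up to 4 genes of smallest p in each list, and Pfkfb3, Col3a1, Havcr1 and Lcn2. Further genes that the report names (among them Chuk, Cxcl1, Cxcl2, Lrp2, Tyms, Slc12a1, Aqp2, Cdh16, Pax8, Kap and the remaining genes past the adjusted p) were added after their values were seen. A gene that this rule selects is not reported here. Of the list genes 15 were not tested for low values or for want of a matching symbol.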

Additional observations from a re-analysis of the deposited data

Results flagged for a closer look

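In 11 of the named genes the strain difference at 14 days differed from that at baseline by a test of the difference itself (the strain difference at 14 days minus that at baseline, on the log2 scale, by limma). It was -3.92 for the chemoattractant gene Ccl2 (adjusted p = 0.0446) and -2.69 for Ccl7 (0.0454), -2.87 for the gelatinase gene Mmp9 (0.00671), -2.97 for the estrogen sulfotransferase gene Sult1e1 (0.0163) and -2.67 for Mucl1 (0.0454), which was listed at 0 in all baseline libraries. In the other direction it was 1.65 for Alpl (0.0443), 1.77 for the ammonia transporter gene Rhcg (0.0453), 1.60 for the proton pump gene Atp6v1b1 (0.0454), 2.41 for the zinc transporter gene Slc39a5 (0.00881) and 2.74 for Cyp2d26 (0.0392). Pfkfb3 differed by -1.99 (0.00671), with strain differences of -0.72 at 14 days and 1.27 at baseline. Leaving out IKKβ∆Tub replicate 2 at 14 days left 7 genes past this test of all genes, against 19 with it, and the Y-linked covariate left 0 by limma (1728 at an unadjusted p under 0.05). With all libraries edgeR called 39 genes in this test and DESeq2 861. The baseline libraries were deeper, and the library sexes lay the other way round in the strains at baseline. The part of depth in the result was not tested.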

How the results depend on the processing

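Directions changed less often than calls, but leaving out libraries cannot reverse a gene whose strains do not overlap. Of the alternatives tried for the named genes, 22 reversed a direction, 215 took a gene out of the calls and 178 brought one in, while 2496 left direction and call as they were. The counts at 14 days that follow are lower and higher genes at the adjusted p, which were 49 and 11 as reported. They were 331 and 34 with a pseudocount of 0.05, 6 and 4 with 0.001, 15 and 7 with a filter at 0.05, 78 and 10 without a filter, 62 and 17 with median ratio scaling, 3 and 2 with edgeR, 270 and 231 with DESeq2 and 93 and 47 with DESeq2 on the 14-day libraries. With limma on the 14-day libraries they were 0 and 1 (914 lower genes at an unadjusted p under 0.05), without the 2-day libraries 14 and 4, with a Y-linked covariate 7 and 2, and among libraries without Y-linked expression 24 and 0 (302 higher genes at an unadjusted p under 0.05). Leaving out 1 library gave 9 to 424 lower and 2 to 182 higher genes. By the p and fold filter, 1202 lower and 518 higher genes became 632 and 295 with a pseudocount of 0.05, 751 lower with the filter at 0.05, 319 higher on the 14-day libraries, 417 and 268 without Y-linked expression, 789 higher with edgeR and 839 higher with DESeq2, and 627 to 1724 lower and 224 to 930 higher without 1 library. A constant prior variance, chosen after seeing the data, gave 68 lower and 11 higher genes. The 19 genes whose strain difference changed between baseline and 14 days became 42 with a pseudocount of 0.05, 10 without a filter, 39 with edgeR, 861 with DESeq2, 7 to 366 without 1 library, and with limma 0 without the 2-day libraries and 0 with the Y-linked covariate (2290 and 1728 genes at an unadjusted p under 0.05). The cause of these shifts was not tested. The replicate numbers do not pair the strains (correlations of deviations -0.32, 0.015 and -0.35 for numbers 1, 2 and 3). A replicate block gave 25 lower and 5 higher genes, and 7 for the change between the times.

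List medians moved by less than the spread between replicates in 616 comparisons and by more in 24, although some of the 616 changed sign, as without IKKβ∆Tub replicate 2 for tubular injury (0.06) and immediate early genes (0.08). The limma fits on the 14-day libraries, without the 2-day libraries, with a replicate block or with a constant prior variance cannot move a median. These fits count among the 616. The spread also includes IKKβ∆Tub replicate 2, so the macrophage median, -1.47 with it and -0.80 without it, counted as unmoved. With a pseudocount of 0.05 the list medians were -0.74 for inflammatory targets, -0.73 for neutrophil and -0.19 for proliferation genes. Without 1 library they ran from -2.20 to -0.88 for MHC class II, -1.36 to -0.72 for complement and -0.57 to 0.0060 for the genes named by the study, whose median was -0.73 with the filter at 0.05. Without Y-linked expression they were -0.89 for fibrinogen, -0.029 for endothelium, -0.13 for the genes named by the study, 0.00 for Y-linked, -0.075 for male-biased and 0.63 for female-biased genes. With the covariate they were 0.61 for glutathione genes, 0.036 for endothelium, -0.12 for Y-linked, 0.70 for male-biased and 0.19 for female-biased genes. For Y-linked genes edgeR gave -11.86, DESeq2 -17.79 and DESeq2 on the 14-day libraries -11.36.

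None of the genes that reversed had passed the adjusted p. Without 1 library Fbp1 ran from -0.037 (IKKβ∆Tub replicate 2) to 0.98, Fos from -1.36 to 0.0061 (IKKβ∆Tub replicate 2), Ier3 from -0.29 to 0.077 (IKKβ∆Tub replicate 2) and Hba-a2 from -0.49 (IKKβ∆Tub replicate 3) to 0.94. The red cell genes changed sign with edgeR, DESeq2 and DESeq2 on the 14-day libraries (Hbb-bs 0.33, 0.34 and 0.35, Hbb-bt 0.26, 0.28 and 0.28, Alas2 0.075, 0.10 and 0.10), without IKKβ∆Tub replicate 1 (0.56, 0.51 and 0.44) and, for Hbb-bt and Alas2, without control replicate 3 (0.04 and 0.23), and were lowest without IKKβ∆Tub replicate 3 (-0.94, -0.87 and -0.58). Xist was -0.11 and Eif2s3y 0.060 without Y-linked expression, and Cyp2j13 0.67 and Slco1a1 1.09 with the covariate. Depth limits low genes, and 6 of the 49 lower genes had 0 reads in an IKKβ∆Tub library.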
